A study of Danio rerio with 20 samples.

Results

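The comparison set zebrafish embryos kept in dimethyl sulfoxide (DMSO) at 0.1 ml/L against embryos kept in DMSO at 0.025 ml/L. Its members were the RNA pools of the DMSO100 group (0.1 ml/L, replicates 2 to 4) and of the DMSO25 group (0.025 ml/L, replicates 1 to 4), chosen by their labels. These 7 pools lay on 12 of the 20 arrays of the series. All groups were whole embryos at 48 h post fertilisation: the series also held DMF100 and DMF25, exposed to dimethylformamide (DMF) at 0.1 and 0.025 ml/L, and a CONTROL group without solvent. Each pool came from the surviving embryos of 1 plate of 20 exposed embryos, so a pool is a mixture of tissues and of individuals. Every array compared 2 pools, 1 in Cy3 and 1 in Cy5, and each pair of pools was hybridised again with the dyes exchanged. The pair of DMSO100 replicate 1 with DMF25 replicate 2 was left out because a file of it names the scan of another array, which left 9 pairs on 18 arrays. The raw log ratios of those like arrays correlated at 0.88, and the highest correlation between any other arrays was 0.60.

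DMSO is a small polar solvent that mixes with water and passes through cell membranes, and it is used to bring poorly soluble chemicals into the test water of fish embryo assays. A zebrafish embryo at this age has a patterned brain, somites, a beating heart and forming pharyngeal arches. Homeobox genes assign position in this body plan. The dlx genes act in the forebrain and the arches that form the jaw, and the hox genes act along the hindbrain, trunk and tail.

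Few transcripts separated the concentrations past the test, and nearly all of those were higher at 0.1 ml/L. Of 3652 probes measured in at least 8 of the 9 pairs, 16 (0.438%) passed an adjusted p under 0.05 in limma, of which 15 were higher in DMSO100 (0.411%) and 1 was lower (0.0274%). The log2 difference of the 15 had a median of 2.24 and reached from 1.37 to 3.83. At an unadjusted p under 0.05 there were 625 probes (17.1%), 338 higher (9.26%) and 287 lower (7.86%). Over all tested probes the median difference was -0.03 with an SD of 0.43, and 62 probes differed by more than 1 upward and 21 by more than 1 downward. The median standard error of a probe was 0.23, and the median half-width of its 95% interval was 0.49. The count rests on few pools: it was 1 without the pair of DMSO100 replicate 2 with DMSO25 replicate 2, 4 without the pair of DMF25 replicate 4 with DMSO25 replicate 3, and 6 without the pair of DMSO100 replicate 4 with DMF100 replicate 3. It was 25 without the pair of DMF100 replicate 2 with DMF25 replicate 3, 37 without DMF100 replicate 1 with CONTROL replicate 3, 41 without CONTROL replicate 1 with DMSO25 replicate 1, and 72 without DMSO100 replicate 3 with CONTROL replicate 4. With the authors' value table in place of the scanner files, 0 probes passed in limma, on all 16407 probes (953 at an unadjusted p under 0.05) and on the same 3652 probes (498).

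**Figure D1:**
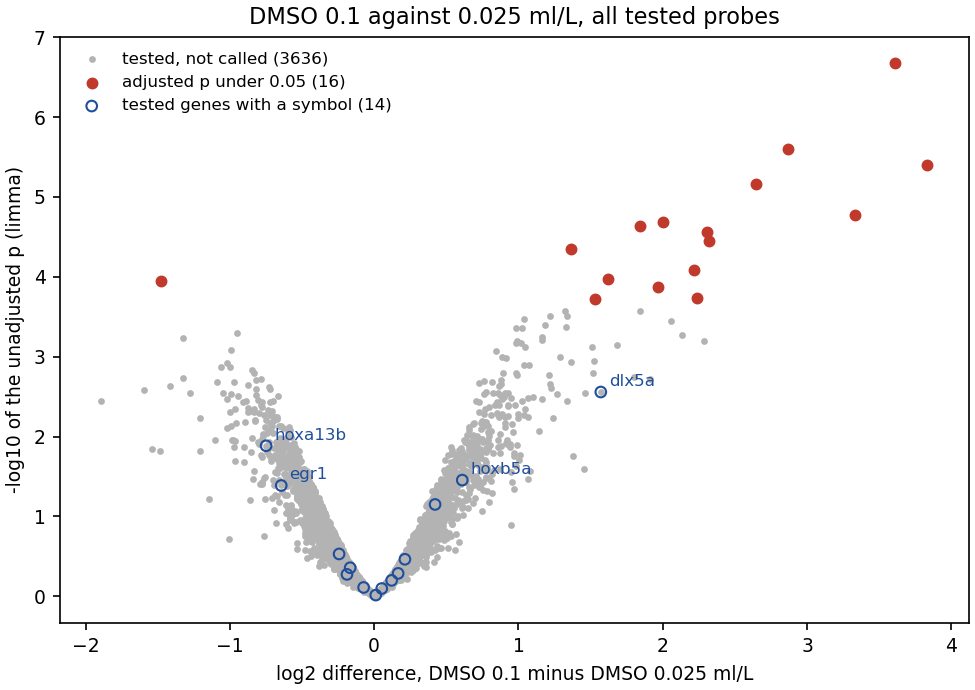
Each point is 1 of the 3652 tested probes; the horizontal axis is the log2 difference of DMSO 0.1 minus DMSO 0.025 ml/L and the vertical axis is -log10 of the unadjusted limma p. Filled red points are the 16 probes with an adjusted p under 0.05, 15 of them to the right of 0, and open circles are the 14 tested genes with a symbol, none of which passed.

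BM155941, a GenBank record that no table used here pairs with a gene, had the smallest p. On the arrays that held both concentrations, its amplitude (the spot brightness in a channel) was 25883 and 30627 in DMSO100 replicate 2, against 2002 and 1701 in DMSO25 replicate 2. DMSO100 was higher in both dye orientations, by 3.77 and 4.57 on the log2 scale after normalization. The BM155941 spots in DMSO25 replicate 2 were 7.49 and 1.02 times the empty-spot medians of their channels. The lower side of the second ratio thus lay at background. In the remaining DMSO100 pools the amplitude was 27817 and 41832 in replicate 3 and 16385 and 16865 in replicate 4. In the remaining DMSO25 pools it was 1191 and 890 in replicate 1, 1163 and 2589 in replicate 3 and 781 and 3219 in replicate 4. Each pool was read on both of its dye-swapped arrays, so these are values of only 3 DMSO100 and 4 DMSO25 pools. Amplitudes of different arrays are not on one scale. The fit gave 3.61 ± 0.38 (SE, 3 DMSO100 and 4 DMSO25 pools), 12.2-fold, with an adjusted p of 0.000776 in limma. It stayed between 3.12 and 4.597 over 26 alternative settings and missed the threshold in 4 of them, among these the value table on all probes (adjusted p = 0.823 in limma) and on the same probes (0.159), and low-confidence spots kept on all probes (0.688). The pairs that did not hold both concentrations gave 3.12 ± 0.47 for the same contrast.

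AW116863, also without a gene name here, rose by 2.87 ± 0.37 (adjusted p = 0.00454 in limma), 7.29-fold. Its amplitude on the shared arrays was 11190 and 14688 in DMSO100 replicate 2, against 1052 and 2549 in DMSO25 replicate 2. These DMSO25 spots were 3.93 and 1.53 times the empty-spot medians of their channels. In Cy3 and Cy5 the spots were 31.3 and 4.89 times in DMSO25 replicate 1. They were 2.68 and 0.86 times in replicate 3, and 1.63 and 1.39 times in replicate 4. The lower side of the difference was thus near background in part of the DMSO25 pools. The 3 pairs with a DMSO100 pool gave log2 ratios of 3.41 over DMSO25 replicate 2, 1.50 for replicate 3 over CONTROL replicate 4, and 3.09 for replicate 4 over DMF100 replicate 3. Every DMSO100 pool was thus above its partner, as was so for 14.2% of all tested probes. Probes that lacked a ratio in any of the 3 pairs were counted as not so. Without the pair of DMSO100 replicate 2 with DMSO25 replicate 2 the estimate was 2.39, and it no longer passed, as in 5 of 26 alternative settings in all.

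BI475266 was the 1 record that fell, by 1.48 on the log2 scale (SE 0.28, adjusted p = 0.0316 in limma), 2.78-fold lower in DMSO100. On the shared arrays its amplitude was 399 and 281 in DMSO100 replicate 2, against 1382 and 4180 in DMSO25 replicate 2. After normalization DMSO100 was lower in both orientations, by -1.27 and -2.56. Over the empty-spot medians of their channels the spots were 4.14 and 12.8 times in DMSO100 replicate 2, against 5.17 and 2.51 times in DMSO25 replicate 2. On that scale the second array put DMSO100 higher. In DMSO100 replicate 3 the spots were only 1.63 and 1.72 times an empty spot. DMSO100 replicate 3 over CONTROL replicate 4 gave -0.26 and DMSO100 replicate 4 over DMF100 replicate 3 gave -0.49. CONTROL replicate 1 over DMSO25 replicate 1 gave -1.33, so this record was also lower in a control pool than in a DMSO25 pool. DMF25 replicate 4 over DMSO25 replicate 3 gave -0.65, and DMF100 replicate 4 over DMSO25 replicate 4 gave -0.31. In the fit DMSO25 minus CONTROL was 0.94 ± 0.26 (adjusted p = 0.968 in limma). DMSO100 minus CONTROL was -0.54 ± 0.28 (adjusted p = 0.436 in limma). Of 26 alternative settings, 12 left BI475266 short of the threshold, with estimates from -1.85 to -1.09 over all 26.

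The 15 records that rose were followed through every pair of pools, as a description of probes that the contrast had chosen. In DMSO100 replicate 2 over DMSO25 replicate 2 their log2 ratios had a median of 2.69 (1.58 to 4.32), against a median of -0.0017 over all tested probes. In DMSO100 replicate 3 over CONTROL replicate 4 the median was 1.22 (0.43 to 2.78), and in DMSO100 replicate 4 over DMF100 replicate 3 it was 2.53 (0.95 to 4.06). All 15 were above 0 in each of these pairs. Over all tested probes, 14.2% had the DMSO100 pool above its partner in all 3 of these pairs and 19.5% had it below.

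The same 15 records also differed between pools that held no DMSO at 0.1 ml/L. In DMF100 replicate 1 over CONTROL replicate 3, all 15 were above 0 with a median of 0.77 (0.15 to 1.91), against 47.7% of all tested probes. This pair has a weight of 0 in the contrast for probes with a ratio in all 9 pairs, as 12 of the 15 records had. In DMF25 replicate 4 over DMSO25 replicate 3, 13 of 13 records with a ratio were above 0, median 0.71, against 64.4% of all tested probes. The dye orientations of this pair did not agree across probes (r = -0.05). In DMF100 replicate 2 over DMF25 replicate 3 only 1 of 15 was above 0, median -0.77, against 57.1%. The other pairs without DMSO100 had medians of -0.11 to 0.08. Across the 6 pairs without DMSO100, a pair of these records correlated at a median r of 0.67, against 0.06 for pairs of all tested probes. All of those pairs except DMF100 replicate 1 over CONTROL replicate 3 carry weight in the contrast that chose the records. That excepted pair can carry weight for a record that lacks a ratio in another pair, and it bears on the residual spread. The median r of 0.67 is thus a description and is in part set by the choice. The 15 spots lay in 12 of the 48 print blocks of the array.

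**Figure D2:**
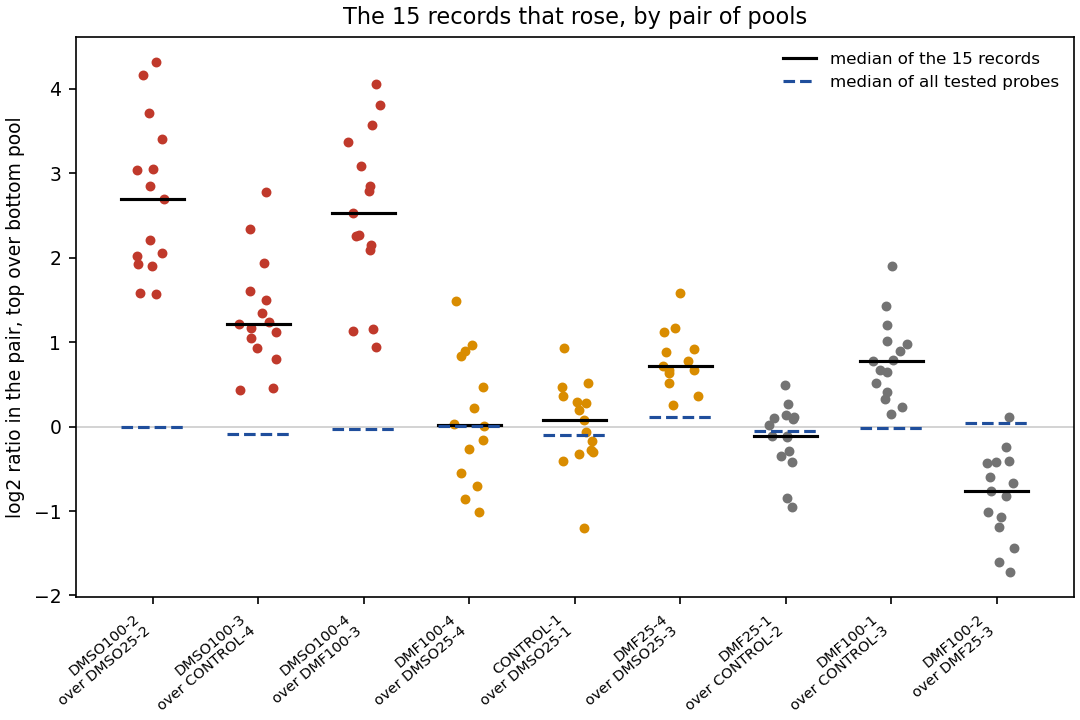
Log2 ratio of the 15 risen records (points) in each of the 9 pairs of pools, named as the top pool over the bottom pool with replicate numbers; red pairs hold a DMSO100 pool, orange pairs a DMSO25 pool without DMSO100, and grey pairs neither. Solid lines are the medians of the records (2.69, 1.22 and 2.53 in the red pairs) and dashed lines the medians of all tested probes, which stay near 0.

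The level of these records in each group was set against control embryos in the same fit. The median of the 15 was 2.03 for DMSO100 minus CONTROL (0.89 to 3.68) and -0.40 for DMSO25 minus CONTROL (-0.78 to 0.23), where 3 of 15 were above 0. Both contrasts use the same control pools, so they are not independent of each other. The records were chosen for DMSO100 minus DMSO25, so the gap between these medians is in part set by the choice. Through CONTROL alone, DMSO100 replicate 3 over CONTROL replicate 4 was added to CONTROL replicate 1 over DMSO25 replicate 1. The median difference was 1.44 (0.30 to 2.86), against -0.18 over 3483 tested probes. Through DMF100 alone it was 2.76 (1.26 to 3.90, 14 records), against -0.03 over 3462 tested probes. Each path joins different pools of its middle group, and its pairs carry weight in the contrast that chose the records.

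Signal strength differed between the pools that were compared. The median probe amplitude was 6.07, 1.30 and 5.58 times that of empty spots in DMSO100 replicates 2, 3 and 4, as geometric means of both dyes. It was 5.09, 1.31, 1.41 and 1.33 times in DMSO25 replicates 1, 2, 3 and 4. Among the 15 risen records, 0 were below the empty-spot median in any DMSO100 pool or in DMSO25 replicate 1. In DMSO25 replicates 2, 3 and 4, 2, 6 and 4 of them were below it in at least 1 dye, against 20.9%, 7.78% and 5.15% of all tested probes, and the share of all tested probes was 12.2% in DMSO100 replicate 3. In DMSO25 replicates 2, 3 and 4 a part of these records thus lay near background. Their amplitudes in the CONTROL and DMF pools were not examined, and the part of background in the size of the difference was not tested. DMSO25 replicate 1 stood highest over empty spots in its group, with empty-spot medians of 17.9 and 126 and probe medians of only 227 and 259. In this pool the 15 spots were at least 2.73 times the empty-spot median. CONTROL replicate 1 over this pool gave a median of 0.08, but CONTROL replicate 1 was itself only 1.40 times its empty spots. After subtraction of the empty-spot median, an alternative chosen after seeing the data, 14 probes passed and the median of the 15 was 2.37.

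**Figure D3:**
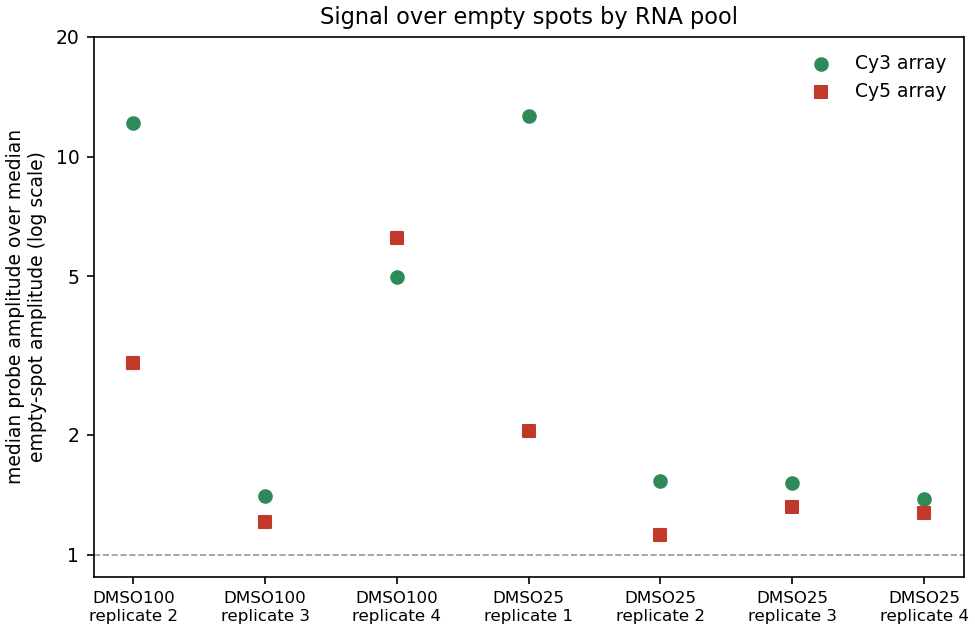
Median amplitude of all probes over the median of empty spots in the same channel, on a log axis, for the 3 DMSO100 pools (left) and the 4 DMSO25 pools (right); circles are the array with the pool in Cy3 and squares the array with it in Cy5. DMSO100 replicate 3 and DMSO25 replicates 2, 3 and 4 lie just above 1, where a probe equals an empty spot.

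Of the named genes, 0 of 14 passed the adjusted threshold, against 0.438% of all tested probes, and 4 of 14 had an unadjusted p under 0.05, against 17.1%. With so few genes these counts do not set them apart from the other probes. Their median difference was 0.03, and 8 of 14 were above 0. The SE values below are those of the fit. In bulk RNA of whole embryos, fewer cells of a type and less RNA per cell cannot be told apart.

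Among the forebrain and jaw homeobox genes, dlx5a, a factor of the forebrain and the pharyngeal arches, had the largest value, 1.57 ± 0.42 (adjusted p = 0.119 in limma). Its amplitude on the shared arrays was 666 and 481 in DMSO100 replicate 2, against 53 and 539 in DMSO25 replicate 2. The empty-spot medians of the DMSO25 channels were 267 and 1665, so its spot in that pool was 0.20 and 0.32 times an empty spot. The ratio of this pair, 2.30, therefore has a lower side below background in both orientations (3.49 and 1.11 singly). The estimate from the other pairs was 0.73 ± 0.51, and DMF25 replicate 4 over DMSO25 replicate 3 gave 1.59. The dye orientations of that last pair did not agree across probes (r = -0.05). DMSO100 replicate 3 over CONTROL replicate 4 gave 0.31 and DMSO100 replicate 4 over DMF100 replicate 3 gave 0.44. DMSO25 replicate 4 did not enter its fit, since its pair had no ratio for this gene. Without the pair of CONTROL replicate 1 with DMSO25 replicate 1 the estimate was 2.20 and passed (adjusted p = 0.00298 in limma), and over the 24 alternatives that gave it a value it ranged from 0.66 to 2.30.

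Its neighbours of the same family lay near 0: dlx1a had 0.05 ± 0.20 and dlx2a had -0.17 ± 0.21, both factors of forebrain interneurons. In the pair that held both concentrations dlx1a gave 0.18 and dlx2a gave -0.01. In DMSO25 replicate 2 of that pair, their spots were 6.15 and 4.96 times the empty-spot median in Cy3. In Cy5 they were only 0.93 and 1.19 times, at background. Of the 8 dlx genes on the array, only these 3 had ratios in enough pairs to be tested.

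The hox genes went to both sides of 0. The value of hoxa13b, a gene of the posterior body, was -0.75 ± 0.26 (adjusted p = 0.190 in limma). Its spots were above the empty-spot median in every pool, with amplitudes of 2054 and 3410 in DMSO100 replicate 2, against 4212 and 5174 in DMSO25 replicate 2. Over the empty-spot medians of their channels they were 21.3 and 155 times in DMSO100 replicate 2, against 15.7 and 3.11 times in DMSO25 replicate 2. On that scale both arrays put DMSO100 higher. That pair gave only -0.23, with orientations of -0.62 and 0.15, and the other pairs gave -1.20 ± 0.32. The trunk gene hoxb5a had 0.61 ± 0.26 (adjusted p = 0.258), with 0.89 in the shared pair and 0.34 from the others. Its spot in DMSO25 replicate 2 was 2.20 and 0.71 times an empty spot. The hindbrain gene hoxb1b had 0.17 ± 0.25. DMSO25 replicate 3 had no ratio for hoxb5a or hoxb1b and did not enter their fits, and the same held for dbx1b.

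Of the 22 listed regulators of hindbrain, spinal cord and ear, 4 were on the array by symbol and 3 were tested, and 0 of these passed. The value of hmx3a, which acts in the ear and lateral line, was 0.42 ± 0.22, that of dbx1b in spinal interneuron progenitors was 0.21 ± 0.22, and mafba, which patterns the posterior hindbrain, was at 0.12 ± 0.25. Their values in the pair holding both concentrations were 0.72, 0.14 and 0.31. From the other pairs they were 0.16, 0.29 and -0.04, so that mafba had no stable sign. In DMSO25 replicate 2 in Cy5 the spots of these genes were 0.83, 1.12 and 0.92 times the empty-spot median, at background. In Cy3 they were 2.64, 2.54 and 6.75 times.

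Of the 13 listed zinc finger and immediate early genes, 3 were on the array by symbol and 2 were tested, and 0 of these passed. The immediate early gene egr1, which is induced quickly by many stimuli, had -0.64 ± 0.29 (adjusted p = 0.268 in limma). Its dye orientations in the shared pair disagreed, with 0.31 when DMSO100 was in Cy5 and -2.27 when it was in Cy3. On the array with DMSO100 in Cy3 the amplitude was 7185 in DMSO100 replicate 2, against 36306 in DMSO25 replicate 2, and the spot carried the second lowest confidence grade. The repressor zeb1b, known for its part in epithelial to mesenchymal transition, had -0.24 ± 0.22, and its dye orientations in the shared pair disagreed too, with 0.32 and -0.62.

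The remaining genes were the retinoic acid receptor rarga with -0.19 ± 0.29, the insulin-like growth factor receptor igf1rb with 0.01 ± 0.28, and naca, which binds nascent peptides at the ribosome, with -0.07 ± 0.25. The receptor rarga had 0.55 in the shared pair and -0.83 ± 0.32 from the other pairs, a difference of 1.38 ± 0.47 that did not pass (adjusted p = 0.319 in limma). The 95% intervals of these genes reached from -0.82 to 0.44 for rarga, from -0.59 to 0.61 for igf1rb and from -0.62 to 0.47 for naca.

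**Figure D4:**
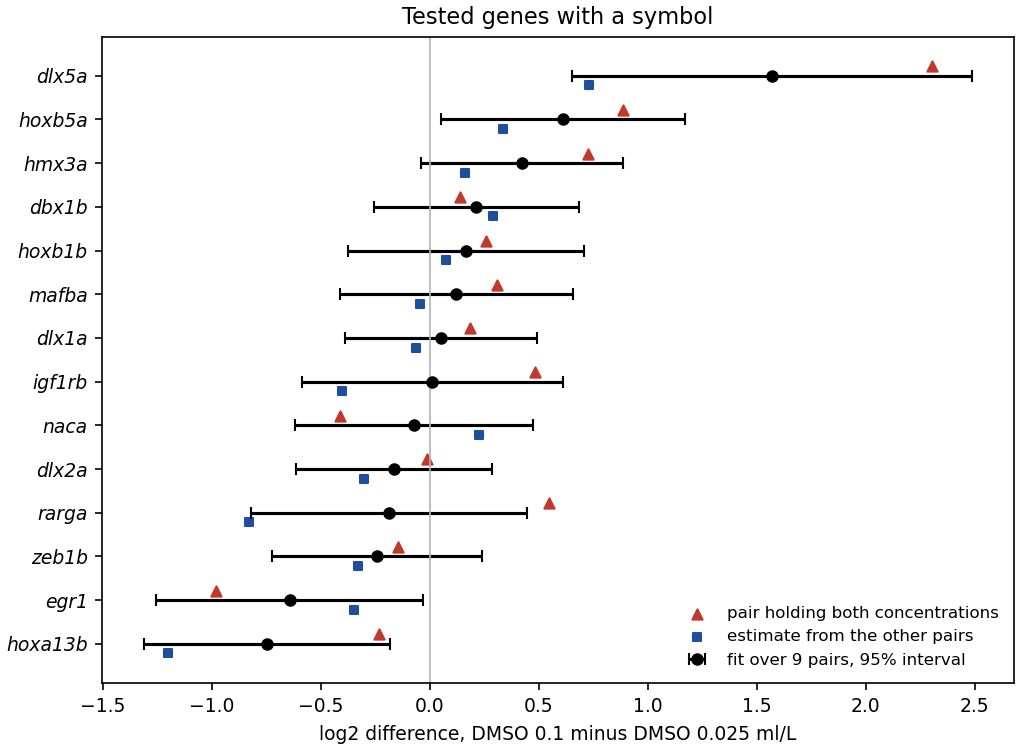
Log2 difference of DMSO 0.1 minus DMSO 0.025 ml/L for the 14 tested genes with a symbol: black points are the fit with its 95% interval, over 9 pairs, or over 8 for dbx1b, dlx5a, hoxb1b and hoxb5a, red triangles the pair that held both concentrations and blue squares the estimate from the other pairs. The intervals of dlx5a, hoxb5a, egr1 and hoxa13b lie off 0 before adjustment, and for dlx5a the triangle (2.30) and the square (0.73) lie far apart.

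Another 33 probe spots had a symbol but too few ratios for a test, and 10 of these had no ratio in any pair. The pair that held both concentrations measured 4 of them. It gave 0.96 for the retinol carrier rbp4, 0.68 for gdf6b of the bone morphogenetic protein family, 0.14 for nkx2.1, a factor of ventral forebrain and thyroid, and -0.08 for the Polycomb gene phc2a. The dye orientations differed by more than 1 for rbp4 (1.67 and 0.25) and for gdf6b (1.77 and -0.41). In DMSO100 replicate 3 over CONTROL replicate 4 rbp4 had -0.24 and gdf6b had -0.70. No probe could be given a symbol from the xenobiotic metabolism list (0 of 13 genes) or the oxidative stress and heat shock list (0 of 17 genes), so these lists were not analysed here. Of the cytochrome P450 family, cyp2ad2, cyp26a1 and cyp11a1.1 were on the array outside these lists and untested. Only cyp2ad2 had ratios, in 3 pairs, with 0.15 for DMSO100 replicate 4 over DMF100 replicate 3 and, in the shared pair, a graded spot in 1 orientation alone (-4.02, with no swapped value beside it). Of the tissue marker list, 1 of 38 genes, dlx2a, was tested, so the tissue makeup of the pools was not checked.

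The record AF025305, printed in 172 spots, differed by 0.79 ± 0.27 (adjusted p = 0.178 in limma). In the pair that held both concentrations its 163 graded spots averaged 1.02 with an SD of 0.18 between spots of the same arrays. The mitochondrial genome record had 13 spots, of which 10 were tested and 0 passed in limma (0.438% of all tested probes did), 1 of them at an unadjusted p under 0.05 (17.1% of all), with a median of -0.16 (-0.996 to 0.35).

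The pair that held both concentrations was set against the estimate from all other pairs, which use none of its pools. Across 3493 probes the difference between these estimates passed for 10 probes (0.286%), 3 higher (0.0859%) and 7 lower (0.2%), and for 324 (9.28%) at an unadjusted p under 0.05. None of the 15 risen records and none of the named genes was among the 10. The contrast that chose the 15 contains the shared pair, and disagreement between the estimates raises its residual spread. For the 15, this result and the medians below are thus in part set by the choice. The median of the 15 was 2.69 in the shared pair and 2.08 from the others, and across probes both estimates correlated at 0.32. For probes with a ratio in all 9 pairs, the shared pair has the largest weight in the contrast, 28.0% of the total of absolute weights.

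The step from 0.025 to 0.1 ml/L of DMSO was set against the same step of DMF. For DMF100 minus DMF25, 0 of 3652 probes passed in limma, and 101 (2.77%) had an unadjusted p under 0.05. The difference between the solvents' steps passed for 12 probes (0.329%), all with a higher DMSO step. Of these, 10 were among the 15 risen records. The test contains the DMSO100 minus DMSO25 difference that chose those records, so it is not separate support for them. Of the records named above, the DMSO step was above the DMF step by 4.28 ± 0.50 for BM155941 (adjusted p = 0.00251) and by 3.38 ± 0.49 for AW116863 (adjusted p = 0.0131), and for BI475266 the difference was -1.61 ± 0.36 (adjusted p = 0.112), all in limma. The DMF step of the 15 risen records had a median of -0.52 (-0.91 to 0.21), with 2 of 15 above 0. None of the 14 genes passed this test. The count of 12 was 0 without the pair of DMF25 replicate 4 with DMSO25 replicate 3, 0 without DMSO100 replicate 4 with DMF100 replicate 3, 1 without DMF100 replicate 2 with DMF25 replicate 3 and 4 without DMSO100 replicate 2 with DMSO25 replicate 2. It was 44 without DMF100 replicate 1 with CONTROL replicate 3 and 50 without DMSO100 replicate 3 with CONTROL replicate 4.

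Arrays were put in scan batches by the first part of the scan name in their headers, which do not call it a batch. By this rule all 4 DMSO25 pools and DMSO100 replicates 2 and 3 were in the same batch, and DMSO100 replicate 4 in another one. Within the shared batch alone, 25 of 3553 probes passed, 18 higher and 7 lower, and the risen records had a median of 2.11. That fit had only 12 arrays for the same 4 coefficients, with DMSO100 replicates 2 and 3 alone. Few residual degrees of freedom were left, so its count is not comparable with that of the reported fit. Agreement between the dye orientations of a pair, with the dye effect removed, was 0.52 for DMSO100 replicate 2 with DMSO25 replicate 2. It was 0.46 and 0.69 for the other pairs with DMSO100, and 0.52, 0.39 and -0.05 for the pairs of DMSO25 replicates 4, 1 and 3. The last of these, with DMF25 replicate 4, thus showed no agreement between its arrays across probes.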

How the data were processed

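The scanner files give an intensity per spot and channel, the amplitude that BlueFuse for Microarrays (3.3 for 2 arrays, 3.6 for 18) estimated per the file headers. They have no background column, and a confidence grade marks each spot. The deposited value table holds log2 ratios of each spot whose making is not given in the sources used here; all 20 columns matched Cy5 over Cy3 of their own array best (Spearman 0.38 to 0.84), the column medians were -0.04 to 0.07, and centring and scale stay unknown.

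Log2 ratios were computed with limma 3.58.1 in R 4.3.3 (statmod 1.5.0, jsonlite 2.0.0). Control spots (750 of 17328) and spots of the lowest grade were left out; 35.5% to 67.4% of probe spots were kept on the 12 arrays with a DMSO pool. Ratios were normalized by loess per array (span 0.3, 4 iterations), the 172 spots of 1 record were averaged, and dye-swapped arrays were averaged to 1 ratio per pair. A model with 4 coefficients against control was fitted by lmFit and eBayes (5 residual and 8.67 prior degrees of freedom), two-sided, with Benjamini-Hochberg adjustment over 3652 probes with a ratio in at least 8 pairs. Differences are log2 values, the error of each is its standard error, and the number of pools and pairs limits the precision.

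Symbols came from RefSeq accessions without version (47 of 16578 probe spots). Named were every tested probe with a symbol and, of passing records without one, at most 2 of smallest p per direction. The members and gene lists were chosen with earlier results of these data known. The fit was tested on simulated data. Alternatives covered normalization, background, spot and probe filters, the value table, all 10 pairs, single arrays, scan batch, a replicate block, a trended prior and each pair left out. Empty-spot subtraction was not planned in advance. Nor were the runs on the 3652 probes with low-confidence spots kept or with the value table.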

Additional observations from a re-analysis of the deposited data

Results flagged for a closer look

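The signal over empty spots of DMSO25 replicate 1 (5.09) stood apart from replicates 2, 3 and 4 (1.31, 1.41 and 1.33). Its gap to the nearest pool was 0.973 of the range of the group, past the critical value. Chance alone passes that value in about 1 group in 20. A pool set apart was not particular to this group. CONTROL replicate 1 had 1.40, against 4.87, 5.01 and 4.86 in replicates 2, 3 and 4. DMF100 replicate 1 had 19.2, against 5.96, 6.66 and 4.32 in replicates 2, 3 and 4. The step between concentrations differed between DMSO and DMF for 12 probes in limma, all with the higher value for DMSO. Of these, 10 were among the 15 risen records, which the DMSO step itself had chosen. The count of 12 was 0 with print-tip loess and with the authors' value table.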

How the results depend on the processing

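The 16 probes of DMSO100 minus DMSO25 became 4 with median centring, 0 with low-confidence spots kept (1106 at an unadjusted p under 0.05 in limma, of 16407 probes; 13 on the 3652 probes), 0 with the authors' value table (953 at an unadjusted p under 0.05, and 0 on the 3652 probes, 498), 8 with all 10 pairs, 281 with single arrays and a dye coefficient, 111 with the pair as random block (correlation -0.29) and 25 in the second scan batch; single arrays count the swapped arrays of the same 2 extracts as separate samples. The cause was not tested. It was 16 with print-tip loess, of which 10 were shared, 24 with both forms of normexp, which are alike because a constant background cancels in normexp, and 14 to 21 with empty-spot subtraction, other filters on probes or a trended prior. Leaving out 1 pair at a time gave 1 to 72. The median of the risen records was between 1.97 and 2.63 in the 26 alternatives, over all 15 except with a ratio in all 9 pairs (12), in the second scan batch (14) and with the replicate block (13).

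The 12 probes of the difference from the DMF step became 0 with print-tip loess, median centring and the value table on either set of probes. With low-confidence spots kept they became 0 on all 16407 probes, but 9 on the 3652 probes of the fit reported. In the fit reported, 475 had an unadjusted p under 0.05 in limma. The count was 4 with all 10 pairs, and 5 with empty-spot subtraction and in the second scan batch. It was 185 with single arrays and 49 with the random block, and leaving out 1 pair gave 0 to 50. The 10 probes of the shared pair minus the others became 0 both when low-confidence spots were kept and in the value table.

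With the replicate block, 0 of 3253 probes passed for DMSO100 minus DMSO25 (413 at an unadjusted p under 0.05 in limma) and 0 for the difference from the DMF step; the labels do not say that a number marks a shared batch, and the 13 risen records tested there had a median of 2.25, with 3.605 for BM155941 (adjusted p = 0.151 in limma).

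Values near 0 turned sign. For igf1rb they were -0.0175 with median centring, -0.0101 with low-confidence spots kept, -0.0267 with the value table (these on either set of probes), -0.116 in the second scan batch and -0.40 to 0.30 when 1 pair was left out. For naca they were 0.0419 with median centring, 0.0766 in the second scan batch and -0.37 to 0.22 with 1 pair left out. For dlx1a they were -0.0203 with empty-spot subtraction, -5.1e-05 with the value table and -0.0618 to 0.14 with 1 pair left out, where mafba had -0.0435 to 0.28 and rarga -0.83 to 0.0998. Empty spots near the probes limit the low side of ratios in DMSO100 replicate 3 and DMSO25 replicates 2, 3 and 4.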

Other observations

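Array 2 held DMSO100 replicate 1 in Cy5 and DMF25 replicate 2 in Cy3. It was left out of the reported fit together with its dye-swapped partner, and entered only the alternative with all 10 pairs. After the average dye effect of the other arrays was removed, 7 of the 15 risen records had a ratio there. Their median log2 value was 1.06 (-0.06 to 2.33), and 6 of 7 were above 0. Over 2045 tested probes the median was -0.03, and 47.2% were above 0. Of 9 named genes measured on this array, 1 was above 0: zeb1b had 0.17, and dlx5a had -0.55. This is a single array on which 30.0% of probe spots were above the lowest confidence grade, and no test was made. By its scan name, array 2 was in a batch apart from all other arrays. Its dye-swapped partner carries the scan name of another array, so the batch of that partner is not known. A dye effect particular to that batch was therefore not removed from these values.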
